A study of Mus musculus with 6 samples.

Results

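Replication-dependent histone genes were followed in bone marrow-derived macrophages of Flt1+/+ and Flt1+/- mice after hypoxia with serum starvation. They were taken as every gene whose symbol places it in the Hist1, Hist2, Hist3 or Hist4 cluster, which gave 62 of the 26778 genes in the table. By class these were 6 genes of the linker histone H1, 13 of H2A, 19 of H2B, 11 of H3 and 13 of H4. By cluster they were 50 genes of Hist1, 8 of Hist2, 3 of Hist3 and 1 of Hist4. A mean of at least 5 normalized counts (reads of a library divided by its size factor) was reached by 30 of them, and only these 30 were compared between genotypes.

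The macrophages were primary cells grown from leg bone marrow of C57BL/6 mice in RPMI with fetal calf serum and L292 conditioned medium (spelled as in the labels). On day 7 both genotypes were put in starvation medium at 2% oxygen for 6 h, and no normoxic group is analysed here. One group was Flt-1+/+ (VR1+/+) and the other Flt-1+/- (VR1+/-), with 3 libraries each. Flt1 encodes a receptor for vascular endothelial growth factor. The age of the mice, the part of Flt1 that is deleted and whether the 3 replicates came from separate mice are not stated in the labels. The p-values therefore measure the spread of these libraries only, and that spread may be technical.

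Replication-dependent histone genes supply the bulk of the nucleosome core histones (H2A, H2B, H3 and H4) and of linker H1 while DNA is copied in S phase. Their genes sit in dense clusters, have no introns in their coding part, and give messages that end in a short stem-loop instead of a poly(A) tail. The stem-loop is bound by the protein Slbp, which serves 3′ end formation, export, translation and decay of the message. Outside S phase these messages are rapidly degraded, while some histone genes of differentiated mammalian cells can also give polyadenylated RNA. The libraries were made from total RNA depleted of rRNA, so a poly(A) tail was not needed for a message to be counted.

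Most of the annotated members shared the stem-loop. The letters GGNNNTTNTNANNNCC, read on the sense strand of GENCODE M21 transcripts (GRCm38) with bases 3 to 5 able to pair with bases 12 to 14, occurred in 42 of the 60 members with an annotated transcript (70.0%) and in 70 of 21951 protein-coding genes (0.319%). The 70 genes include the 42 members. The stem split the classes. All 30 stem-loops of H1, H2A, H2B and H3 genes opened with GGCTC, and none of the 12 of H4 genes did, of which 10 opened with GGCCC and 2 with GGTCC. One 16-base form, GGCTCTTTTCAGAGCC, stood in 22 genes. The 26 bases around the stem-loop are shown, with the stem-loop in capitals, for Hist2h4, the 1 member called between genotypes, for Hist4h4, the single gene of its cluster, and for the gene with the highest count among those with the letters in H1, H2A, H3 and H4.
Hist2h4: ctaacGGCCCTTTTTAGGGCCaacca
Hist1h4i: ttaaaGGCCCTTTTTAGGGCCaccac
Hist4h4: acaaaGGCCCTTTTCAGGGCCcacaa
Hist1h1c: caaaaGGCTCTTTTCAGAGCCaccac
Hist3h2a: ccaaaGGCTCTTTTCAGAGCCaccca
Hist2h3c1: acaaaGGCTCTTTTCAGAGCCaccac
Hist2h4 and Hist1h4i carried the same stem-loop letters, so these letters do not separate the called gene from the most abundant uncalled H4 gene.

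Estimated depth ran from 25130000 to 42070000 counted reads per library, of which 3860 to 13713 fell in the 62 histone genes. The libraries are lettered A, B and C within a genotype by size factor, because the table holds group means and not replicate numbers. Flt1 itself read 3.70, 10.3 and 6.04 normalized counts in Flt1+/+ libraries A, B and C and 17.1, 12.9 and 8.19 in Flt1+/- libraries A, B and C; the authors' deposited table puts its adjusted p at 0.641, so it does not check the genotype labels. All 9 macrophage markers were present. At an adjusted p under 0.05 in the authors' deposited table, 3 of their 10 entries were lower and 0 higher in Flt1+/-. The marker lists below use the same threshold, at which 3.52% of all genes were lower and 2.51% higher. Counts per library were recovered for 3 of the 10 macrophage entries, so no library sum is given for them. Of 9 neutrophil markers 8 were higher in Flt1+/-, with library sums of 855 to 932 in Flt1+/+ and 3705 to 4668 in Flt1+/-. Of 6 markers of proliferating cells 4 were higher, with sums of 7327 to 9788 against 10550 to 14480. Of the other lists, T and NK cell markers (3 of 6 in the table) had 1 of 1 tested gene lower, with sums of 680 to 768 against 439 to 583. Of B and plasma cell markers 2 of 3 tested were lower (5835 to 6361 against 5724 to 6700), of fibroblast and stroma markers 1 of 6 was higher (566 to 883 against 766 to 1262), and of erythroid and megakaryocyte markers 1 of 3 was higher (935 to 2542 against 771 to 1200). No marker found in the table was at 0 in every library. In bulk RNA, a different share of cycling or other cells and a different amount of histone RNA per cell cannot be told apart, and the part of these markers in the histone values was not tested.

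Of the 30 histone genes, Hist2h4 alone was called between genotypes, lower in Flt1+/-, and 0 were called higher. An adjusted p is given for 24 of the 30 in the authors' deposited table, 3 have a p without an adjusted p (Hist1h4n, Hist1h3e and Hist1h4h) and 3 have no p (Hist1h2be, Hist2h2aa1 and Hist1h2al). The background share of genes called at an adjusted p of 0.05 was 6.04% in either direction, 3.52% lower and 2.51% higher, so 1 of 24 lower is near the background. At an unadjusted p under 0.05 the deposited test marked 3 members, Hist2h4, Hist1h1a and Hist1h2bk, all lower in Flt1+/-, where 7.8% of all genes were marked lower and 6.88% higher. A second test, limma on log2(normalized count + 1) of the reads recovered per library, called Hist2h4 lower and 0 members higher, against 1.81% of all genes called in either direction, 1.15% called lower and 0.668% called higher. At an unadjusted p under 0.05 limma marked 4 members, the same 3 and Hist1h3e, all lower, where 8.36% of all genes were marked lower and 7.52% higher.

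The group mean was lower in Flt1+/- for 20 of the 30 members and higher for 10, where 50.9% of all genes had a lower mean. In 5 members every Flt1+/- library lay under every Flt1+/+ library (background 11.7%), and in 0 members every one lay above (background 10.9%). The 5 were Hist2h4, Hist1h1a, Hist1h2bk, Hist1h3e and Hist1h4c. The median log2 ratio of Flt1+/- over Flt1+/+ group means, each with 1 added, was -0.24 over the 30 members and -0.01 over all genes with the same minimum. By class the median was -0.31 over 4 H1 genes, -0.82 over 4 H2A genes, -0.21 over 11 H2B genes, -0.04 over 4 H3 genes and -0.93 over 7 H4 genes. Single libraries move these medians: without Flt1+/+ C the median was -0.01 over all members, -0.03 for H2A, 0.19 for H2B and -0.07 for H4, and without Flt1+/- B it was -0.80 over all members and -1.63 for H4. By cluster it was -0.29 over 24 Hist1 genes and 0.07 over 5 Hist2 genes, with -0.15 for Hist3h2a as the 1 Hist3 gene and no Hist4 gene that reached the minimum. The 15 members that share at least 50% of their 50-base stretches with another gene had a median of -0.93, and the 14 that do not had a median of -0.12.

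**Figure D1:**
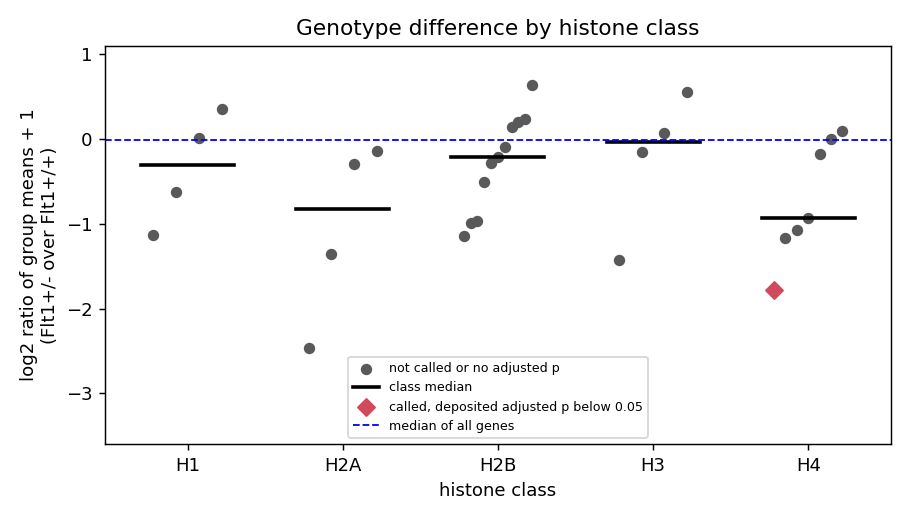
Log2 ratio of the group means plus 1 (Flt1+/- over Flt1+/+, vertical axis) for the 30 histone genes by class, each point a gene, with black bars at class medians and a dashed line at the median of all genes. Hist2h4, the red diamond at -1.78, is the 1 called gene, and the class medians run from -0.93 for H4 to -0.04 for H3.

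The 30 members varied widely among libraries of the same genotype. Among the 7 members with a mean of at least 100, the median coefficient of variation was 18.8% in Flt1+/+ and 39.9% in Flt1+/-. Over 10628 genes with a mean of 100 to 10000 it was 7.72% and 12.2%. That range is wide, and members were not matched to other genes by mean within it. In the 11 members between 20 and 100 it was 27.9% and 41.1%, against 22.3% and 25.4%. In the 12 members between 5 and 20 it was 62.4% and 82.8%, against 38.9% and 41.1%. The class medians of the genotype ratio therefore rest on genes whose libraries scatter more than those of other genes in the same ranges of mean.

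**Figure D2:**
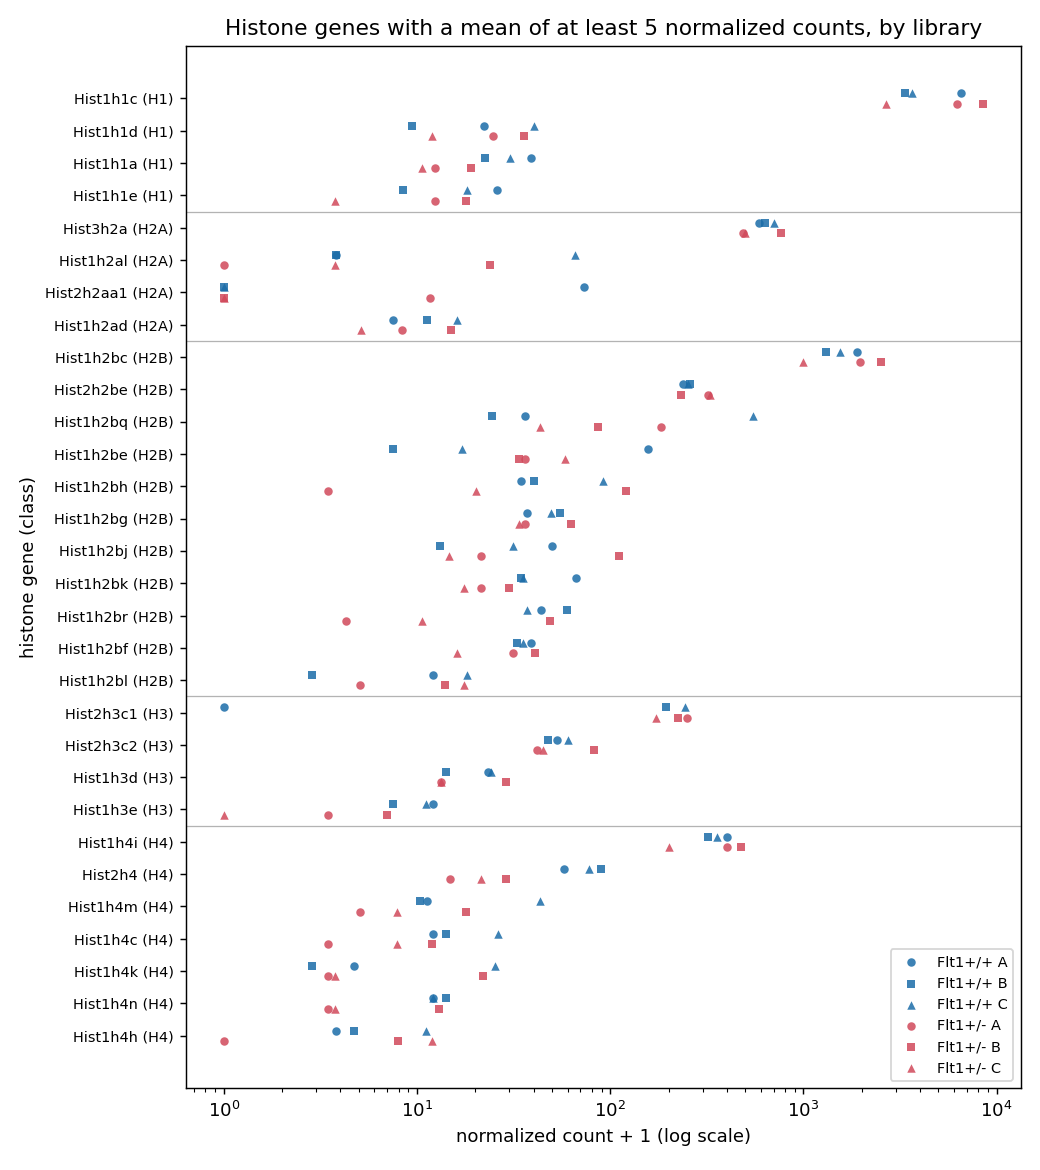
Normalized count plus 1 on a log axis for each of the 30 histone genes with a mean of at least 5, ordered by class, with blue marks for the 3 Flt1+/+ libraries and red marks for the 3 Flt1+/- libraries. The red and blue marks overlap for most genes, while the 3 red marks of Hist2h4, at 13.9 to 27.8 counts, lie left of its 3 blue marks, at 56.4 to 88.6.

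H4 forms the core tetramer of the nucleosome together with H3, and the group mean was lower in Flt1+/- for 5 of its 7 compared genes. Hist2h4 (ENSMUSG00000091405, Hist2 cluster, chr3:96261682-96263311, minus strand, mm10) was the only H4 gene called. It read 56.4, 88.6 and 76.5 normalized counts in Flt1+/+ libraries A, B and C and 13.9, 27.8 and 20.5 in Flt1+/- libraries A, B and C. The highest Flt1+/- library lay below the lowest Flt1+/+ library. The group values were 73.8 ± 16.3 and 20.7 ± 6.99 (SD, n = 3 each). The change was -1.12 on the log2 scale in the authors' deposited table (standard error 0.25, adjusted p 0.000376), where fold changes are drawn towards 0. On the log2(normalized count + 1) scale limma gave -1.81 (standard error 0.32, adjusted p 0.0436). That call was lost in 5 of the 6 fits that left out 1 library, with adjusted p of 0.0871 without Flt1+/+ A, 0.183 without Flt1+/+ B, 0.172 without Flt1+/+ C, 0.0936 without Flt1+/- A and 0.143 without Flt1+/- C, although the fold change stayed between -2.04 and -1.56. Only 1.0% of the 50-base stretches of Hist2h4 occur in another gene. The annotated gene goes on for 1257 bases past its stem-loop, and where in the gene the reads fell was not analysed here.

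Hist1h4i (ENSMUSG00000060639, chr13:22040636-22041362, minus strand) was the most abundant H4 gene per length and did not change detectably. It read 399.5, 318.0 and 355.1 normalized counts in Flt1+/+ and 402.8, 476.1 and 199.3 in Flt1+/- libraries A, B and C. Flt1+/- B was the highest and Flt1+/- C the lowest of all 6 libraries. In the authors' deposited table the log2 fold change was 0.01 (standard error 0.23, adjusted p 0.994), and its sign turned to -0.08 in limma. The 5 other H4 genes above the minimum were low, with group means of 20.6 and 9.27 for Hist1h4m, 16.4 and 6.74 for Hist1h4c, 9.90 and 8.68 for Hist1h4k, 11.7 and 5.70 for Hist1h4n, and 5.52 and 5.96 for Hist1h4h (Flt1+/+ first). Hist1h4m, Hist1h4k and Hist1h4n share 89.8%, 71.5% and 85.6% of their 50-base stretches with other genes, so their reads may be split among copies. Hist4h4 (ENSMUSG00000096010, chr6:136801553-136804415, minus strand), the single Hist4 gene, read 5.55, 0 and 3.02 in Flt1+/+ and 0, 2.98 and 0 in Flt1+/-, which is too few for a comparison.

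H3 carries many of the tail marks of chromatin, and 0 of its 3 tested genes passed the deposited test. Hist2h3c1 (ENSMUSG00000093769, chr3:96246685-96248509, plus strand) read 0, 194.0 and 242.4 normalized counts in Flt1+/+ and 249.5, 222.6 and 170.6 in Flt1+/-. Flt1+/+ A alone held no read, and the other 5 libraries overlapped. The fold change that the authors' deposited table gives was 0.04 on the log2 scale (standard error 0.14, adjusted p 0.950), and limma gave 2.55, or -0.04 without Flt1+/+ A. All of its 50-base stretches also occur in other genes. The gene sharing the most is Gm20634, a longer gene annotated over it on the same strand. Hist2h3c2 (ENSMUSG00000081058, chr3:96238108-96239127, minus strand) read 51.8, 46.6 and 59.4 in Flt1+/+ and 40.8, 81.5 and 43.7 in Flt1+/-, with overlapping groups. In the authors' deposited table the log2 fold change was 0.05 (standard error 0.25, adjusted p 0.971). Group means were 19.5 and 17.4 for Hist1h3d and 9.23 and 2.80 for Hist1h3e.

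H2A pairs with H2B in the outer dimers of the nucleosome. Of the 4 H2A genes above the minimum only Hist3h2a and Hist1h2ad have an adjusted p, and 0 passed. Hist3h2a (ENSMUSG00000078851, chr11:58954685-58956830, plus strand) read 587.2, 632.3 and 706.2 normalized counts in Flt1+/+ and 485.9, 761.3 and 494.1 in Flt1+/-. Flt1+/- A and C lay below all Flt1+/+ libraries and Flt1+/- B above them. The fold change that the authors' deposited table gives was -0.12 on the log2 scale (standard error 0.18, adjusted p 0.863). Trim17 is annotated over it on the same strand. Of the 50-base stretches of Hist3h2a, 31.5% occur in other genes, with Trim17 sharing the most. Hist1h2al (ENSMUSG00000091383, chr13:51202727-51203065, minus strand), a processed pseudogene in the annotation that lies far from the main Hist1 cluster, read 2.77, 2.80 and 64.4 in Flt1+/+ and 0, 22.9 and 2.73 in Flt1+/-. Most of its reads came from Flt1+/+ C and Flt1+/- B. Hist2h2aa1 read 72.1, 0 and 0 in Flt1+/+ and 10.6, 0 and 0 in Flt1+/-, with all reads in library A of each genotype. Of its stretches 89.4% occur in other genes, and Gm20634 shares the most of them, as it does for Hist2h3c1 next to it. Hist1h2ad had group means of 10.6 and 8.45.

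H2B had the most genes above the minimum, and 0 of its 10 tested genes passed. Hist1h2bc (ENSMUSG00000018102, chr13:23684199-23692488, plus strand) read 1903, 1307 and 1553 normalized counts in Flt1+/+ and 1951, 2527 and 996.5 in Flt1+/-. The Flt1+/- libraries lay on both sides of all Flt1+/+ libraries. In the authors' deposited table the log2 fold change was 0.15 (standard error 0.23, adjusted p 0.864). Hist2h2be (ENSMUSG00000068854, chr3:96221119-96223738, plus strand) read 237.6, 258.3 and 252.5 in Flt1+/+ and 321.2, 230.6 and 327.6 in Flt1+/-. Flt1+/- B was the lowest library for this gene, the reverse of Hist1h2bc, and Hist2h2be shares no 50-base stretch with another gene. The fold change that the authors' deposited table gives was 0.20 on the log2 scale (standard error 0.17, adjusted p 0.680). Among the others, Hist1h2bq read 35.1, 23.3 and 548.2 in Flt1+/+ and 182.6, 85.5 and 42.3 in Flt1+/-, so that Flt1+/+ C held most of its reads, and 97.3% of its stretches occur elsewhere. Hist1h2bk had group means of 44.5 and 21.9, and the authors' deposited table puts its adjusted p at 0.252. Group means were 59.6 and 41.7 for Hist1h2be, 54.3 and 46.9 for Hist1h2bh, 46.1 and 43.2 for Hist1h2bg, and 30.4 and 47.8 for Hist1h2bj. They were 45.8 and 20.2 for Hist1h2br, 34.6 and 28.3 for Hist1h2bf, and 10.0 and 11.1 for Hist1h2bl. In the annotation Hist1h2be overlaps Hist1h1e on the same strand. Their deposited spans, chr13:23583742-23621124 and chr13:23621755-23622502, do not overlap, and whether reads of both were shared is not known.

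Linker H1 binds where DNA enters and leaves the nucleosome, and 0 of its 4 tested genes passed. Hist1h1c (ENSMUSG00000036181, chr13:23738808-23740367, plus strand) was the most abundant of all members, at 6531, 3372 and 3661 normalized counts in Flt1+/+ and 6267, 8463 and 2688 in Flt1+/-. Its group values were 4521 ± 1746 and 5806 ± 2915 (SD, n = 3 each), with the lowest and the highest library both Flt1+/-. In the authors' deposited table the log2 fold change was 0.18 (standard error 0.26, adjusted p 0.853). Hist1h1d (ENSMUSG00000052565, chr13:23555087-23555830, plus strand) read 21.3, 8.39 and 39.2 in Flt1+/+ and 23.6, 34.8 and 10.9 in Flt1+/-, with overlapping groups. The fold change that the authors' deposited table gives was 0.01 on the log2 scale (standard error 0.25, adjusted p 0.994). Hist1h1a read 37.9, 21.5 and 29.2 in Flt1+/+ and 11.4, 17.9 and 9.56 in Flt1+/-. Every Flt1+/- value lay below every Flt1+/+ value, but the authors' deposited table puts its adjusted p at 0.220. Hist1h1e had group means of 16.5 and 10.4.

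The other 32 members lay under a mean of 5 and were not compared. They comprise 2 H1, 9 H2A, 8 H2B, 7 H3 and 6 H4 genes, of which 29 had 0 reads in at least 1 library. Of the 30 compared members 5 had such a library, against 3.46% of all genes with that minimum. The members just above the minimum were Hist1h4h at a mean of 5.74 and Hist1h3e at 6.02, and those just below were Hist2h2ac at 4.96 and Hist1h2ac at 4.65.

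Per length, the members spanned from 0.641 to 3310 mean normalized counts per kb of gene, with a median of 9.65. Hist1h1c was highest at 3310 per kb, followed by Hist1h2bc at 1480, Hist1h4i at 493, Hist3h2a at 285, Hist1h2bh at 131 and Hist2h2be at 104. All other members lay under 100 per kb. All members together summed to 10540, 6641 and 8180 normalized counts in Flt1+/+ and 10210, 13630 and 5269 in Flt1+/- libraries A, B and C. Without Hist1h1c the sums were 4008, 3269 and 4520 against 3942, 5166 and 2581. In both sums the Flt1+/- libraries held the highest and the lowest value, so the groups overlapped.

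The deposited gene ends differ in how far they reach past the stem-loop. In 13 genes the deposited span went on for at least 100 bases after it, and in 29 it ended within 100 bases. Those 29 include Hist1h3g, whose deposited span ends before the stem-loop. In 18 the letters were not found in an annotated transcript, and 2 (Hist1h2bh and Hist1h2bm) have no annotated transcript to search. The search covers only what is annotated, and Hist1h2bl and Hist1h3i, for example, have annotated transcripts of 381 and 411 bases. The median level was 11.4 counts per kb in the first group, 9.76 in the second and 6.50 in the third, and the highest gene of each read 3310, 93.6 and 1480 per kb. Hist1h1c, Hist1h4i, Hist3h2a and Hist2h3c1 belong to the first group, with 840, 330, 1643 and 1162 bases after the stem-loop. Hist1h2bc and Hist2h2be belong to the third. In this description length and level are not independent, because the length used is that of the annotated gene.

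**Figure D3:**
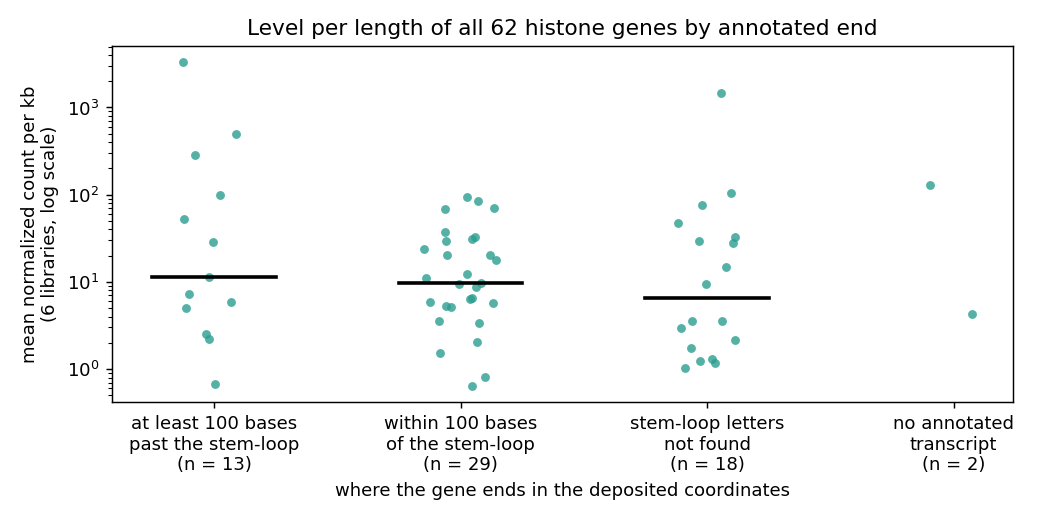
Mean normalized count per kb of gene (log axis, 6 libraries) for all 62 histone genes, grouped by where the deposited gene ends relative to the stem-loop, with black bars at the medians of 11.4, 9.76 and 6.50 and no bar for the 2 genes without an annotated transcript. Those that end within 100 bases of the stem-loop reach 93.6 per kb at most, while each other group holds at least 1 gene above 100.

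Many H2A and H2B genes stand head to head over a shared gap. There were 8 such pairs with a gap of at most 500 bases, measured 172 to 301 bases, and all 8 joined an H2A to an H2B gene. The H2B gene was higher per length in 7 of the 8, and in those 7 it was higher in each of the 6 libraries, with a ratio of 3.32 to 151. These pairs were looked for after their values were seen, so the counts are a description. Hist1h2bc stood at 1480 counts per kb and its partner Hist1h2ac at 9.76, and Hist2h2be at 104 and its partner Hist2h2ac at 9.54. The exception was Hist3h2a at 285 beside Hist3h2bb-ps at 1.76, an annotated pseudogene. Hist2h2be shares no 50-base stretch with another gene, and Hist1h2bc shares 30.1%, while in the pairs of Hist1h2bq, Hist1h2bk, Hist1h2bj and Hist1h2bf both partners share more than 50%. The 250 bases before the start of both low H2A partners are shown because they cover most or all of the gap, from which the high H2B gene is read the other way (RefSeq, GRCm38.p6, minus strand). Capitals mark the CCAAT box, the TATA box by its letters TATAAA and the octamer by its letters ATTTGCAT, each searched on both strands, with no overlap between motifs in these windows.
Hist1h2ac, chr13:23683960-23684209: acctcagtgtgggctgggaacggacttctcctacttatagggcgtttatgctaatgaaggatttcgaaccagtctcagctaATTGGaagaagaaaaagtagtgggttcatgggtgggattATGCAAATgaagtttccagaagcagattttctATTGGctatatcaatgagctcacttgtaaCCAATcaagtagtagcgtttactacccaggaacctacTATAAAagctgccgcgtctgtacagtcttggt
Hist2h2ac, chr3:96220881-96221130: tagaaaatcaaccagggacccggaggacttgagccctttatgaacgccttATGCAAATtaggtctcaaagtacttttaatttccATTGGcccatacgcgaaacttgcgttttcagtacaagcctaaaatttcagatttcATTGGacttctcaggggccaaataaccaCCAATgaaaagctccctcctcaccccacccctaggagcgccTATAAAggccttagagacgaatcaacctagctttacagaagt
Both windows hold ATTTGCAT on the strand of the H2B gene, CCAAT in both directions and TATAAA near the H2A start.

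**Figure D4:**
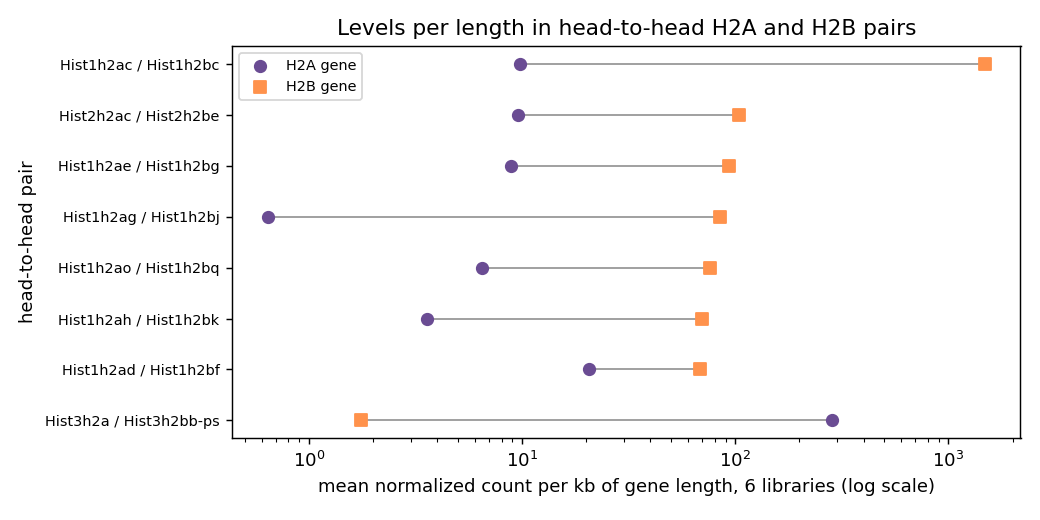
Mean normalized count per kb of gene length (log axis, 6 libraries) of the H2A gene (purple circle) and the H2B gene (orange square) in each of the 8 head-to-head pairs. The orange square lies right of the purple circle in 7 pairs, farthest for Hist1h2ac and Hist1h2bc at 9.76 and 1480, and left of it for Hist3h2a and Hist3h2bb-ps.

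Promoters (250 bases before to 50 after the start) were found in RefSeq for 55 members. The octamer, a site known for histone H2B gene promoters, was held by 13 of them against 1.74% of 32851 promoters of the same length. All 13 were H2A or H2B genes (6 of 12 H2A and 7 of 16 H2B). Windows of head-to-head partners overlap, so a motif can be counted for both genes. Hist1h2ae and Hist1h2bg hold the same octamer, as do Hist1h2ah and Hist1h2bk, so the 13 are not all separate sites. CCAAT was held by 46, against 37.4% of all promoters. These were all 6 H1, 12 H2A, 16 H2B and 9 H3 genes found, and 3 of the 12 H4 genes. TATAAA was held by 32, against 13.6%. A match is a description of the letters and does not show a bound factor.

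Libraries of the same genotype stood apart in the histone genes as a group. Of the 3 Flt1+/- libraries B was the highest in 23 of the 30 members, against 36.4% of all genes. The highest of all 6 libraries was Flt1+/- B in 10 members (background 17.8%) and Flt1+/+ C in 8 (background 18.1%). The lowest was Flt1+/- C in 10 (background 14.5%) and Flt1+/- A in 11 (background 24.8%). The median deviation from the genotype mean over 29 members was -0.02, -0.32 and 0.14 on the log2 scale in Flt1+/+ A, B and C and -0.20, 0.62 and -0.36 in Flt1+/- A, B and C. Over all genes it was at most 0.02 in size. Groups of genes by GC content also differed between libraries of the same genotype. Genes in the highest GC decile (1658 genes, members left out) deviated by -0.13, -0.07 and 0.21 in Flt1+/+ A, B and C and by -0.39, 0.41 and 0.01 in Flt1+/- A, B and C. Those in the lowest GC decile deviated by 0.03, 0.02 and -0.04 in Flt1+/+ and by 0.16, -0.16 and 0.01 in Flt1+/-. The members had a median GC of 53.7% against 49.4% over all genes, and 12 of 29 lay in the highest GC decile. GC was taken from the longest annotated transcript of each gene. The deposited span equals the annotation for 41 of the 62 members, so for others this GC may not be that of the counted gene. The part of GC content in the histone values was not tested. Flt1+/- C also had the least estimated depth, at 25130000 reads. That estimate follows the size factor, by which the libraries were lettered, so C is the least of its genotype by construction.

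**Figure D5:**
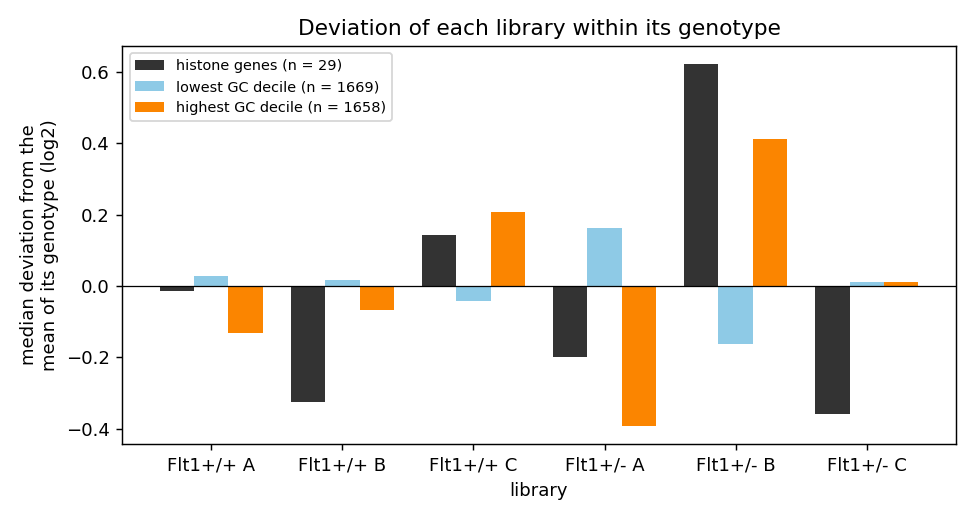
Median deviation of each library from the mean of its genotype (log2, vertical axis) for 29 histone genes (black), genes in the lowest GC decile (light blue) and genes in the highest GC decile (orange). Flt1+/- B stands highest for the histone genes at 0.62 and for the highest GC decile at 0.41, while Flt1+/- C is at -0.36 and 0.01.

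Genes that make, bind, destroy or replace these histones were given by lists. None of 23 tested genes for histone transcription and 3′ processing was called in either direction (1 higher and 0 lower at an unadjusted p under 0.05 by the deposited test, and the same by limma), with a median log2 ratio of -0.01. Slbp, the stem-loop binding protein, read 1148, 1091 and 1056 in Flt1+/+ and 1156, 1060 and 1112 in Flt1+/-, so the groups overlapped, and the authors' deposited table puts its adjusted p at 0.981. None of 13 decay genes was called, with a median of 0.06. At an unadjusted p under 0.05 each test marked 1 of them higher and 0 lower, and limma tested 12 of the 13. At that threshold the deposited test marked 6.88% of all genes higher and limma 7.52%. Of 22 histone chaperones and assembly factors 1 was called higher and 0 lower, where 2.51% of all genes were called higher. At an unadjusted p under 0.05 the deposited test marked 2 higher and 0 lower, against the same 6.88% higher. Of the 19 that limma tested it marked 5 higher and 0 lower, against the same 7.52%. The median log2 ratio was 0.15. The called gene was Hjurp, the chaperone of the centromeric H3 variant, with group means of 2946 and 3730 (adjusted p = 0.0138 as the authors' deposited table has it), and limma did not call it (adjusted p = 0.0854).

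Of 12 replication-independent histone variants, which are made outside S phase as well, 1 was called higher and 0 lower, against the same 2.51%. At an unadjusted p under 0.05 the deposited test marked 1 higher and 0 lower, where 6.88% of all genes were marked higher. Of the 11 that limma tested it marked 2 higher and 0 lower, where 7.52% were marked higher. The median log2 ratio was 0.12. The called gene H1f0, a linker histone of cells that have stopped dividing, read 2909, 1767 and 1702 normalized counts in Flt1+/+ and 4021, 4331 and 2599 in Flt1+/-. The groups overlapped in Flt1+/+ A and Flt1+/- C. In the authors' deposited table the log2 fold change was 0.62 (standard error 0.21, adjusted p 0.0475), and limma did not call it (adjusted p = 0.213). The core variants H2afz and H3f3b had group means of 3955 and 4765, and of 4823 and 4482, and the authors' deposited table puts their adjusted p at 0.336 and 0.923.

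Of 39 tested genes of S phase and DNA replication 3 were called higher and 0 lower, against 2.51% of all genes called higher. At an unadjusted p under 0.05 the deposited test marked 11 higher and 0 lower (6.88% of all genes higher) and limma 13 and 0 (7.52% higher). Their median log2 ratio was 0.21, beside -0.24 for the histone genes, and no test compared these lists. Mcm10, which helps to load the replication machinery, read 197.0, 232.2 and 231.4 in Flt1+/+ and 379.1, 352.8 and 384.9 in Flt1+/-, and the groups did not overlap. Its adjusted p is 0.000218 as the authors' deposited table has it and 0.0368 in limma. Mki67, a marker of cycling cells, rose from a group mean of 4555 to 7061 with an adjusted p of 0.00543, and Pole, the catalytic subunit of a replicative polymerase, from 378.5 to 545.9 with 0.0123, both in the authors' deposited table and neither called by limma. Pcna, the replication clamp, had group means of 4833 and 5274 with an adjusted p of 0.572 in that table.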

How the data were processed

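RNA-seq of 6 macrophage libraries was analysed from 1 table of group values. Libraries were made with the TruSeq Stranded Total RNA kit, per the labels' protocols. FastQC, TopHat 1.0.0, Cufflinks and build mm10 are named in the submitters' processing notes; which tool counted the reads, and whether by strand, is not given in the sources used here. The signal in the deposited group columns is the authors' mean of counts divided by size factors. Column names are those DESeq2 writes, per the file headers. Deposited log2 fold changes, their standard errors and scores (fold change over error) and two-sided p-values are the authors' own.

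Whole counts per library were recovered from the steps of the group means for 26174 of 26778 genes (97.7%), and for all 62 members. Depth was estimated as the group total times the size factor. On 6000 simulated means all were solved right. Means up to 10000 were solved, but the simulated ones covered only the lower part of that range. They did not reach, for example, the group means of Hist1h1c and Mki67 or that of mt-Co2 in Flt1+/+. For genes with such means the recovered values were not checked by simulation. limma 3.58.1 (R 4.3.3) with trend was fitted to log2(normalized count + 1) of 16756 genes with a mean of at least 5, with Benjamini-Hochberg adjustment. On simulated data of 16756 genes, at a simulated dispersion of 0.00601, it called 88 of 100 genes changed 2-fold and 100 of 100 changed 4-fold. It also called 4 unchanged genes. The histone genes scatter more than other genes in the same ranges of mean, so these shares do not apply to them. A two-sided exact permutation test of 3 against 3 cannot go below 0.1 and was not used.

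Stretches of 50 bases were compared across GENCODE M21 exons. Gene length was the shorter of annotated exon length and deposited span, whose ends equal the annotation for 41 members. Hist1h2bh and Hist1h2bm have no entry there. The design foresaw this table of group means, so the deposited test is the main test and limma the alternative, with other pseudocounts, minimum levels, scalings, a term for libraries with or without mt-Co2 reads (library-set term) and omission of libraries.

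Named were the members called by a test, the 2 highest of each class by count and the single gene of a cluster, plus Hist2h2aa1, Hist1h2bq and Hist1h1a, chosen after their values were seen. Slbp, H2afz, H3f3b and Pcna were likewise chosen with values known. List members were otherwise named where called. The members and lists were chosen with earlier results of these data known.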

Additional observations from a re-analysis of the deposited data

How the results depend on the processing

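The count of histone genes called lower was 1 in the deposited test and in limma, and 0 in limma with a mean of at least 1 (Hist2h4 adjusted p = 0.0526). When 1 library was left out it was 0 to 1. It was 0 for higher in every setting run. Median ratios moved by less than the spread between libraries in every setting run, but that spread is wide. Its SD was 0.623 over all members and 0.594 to 1.143 by class. In omissions the median ran from -0.80 to -0.01 over all members and from -1.63 to -0.07 for H4. Those of H1, H2B and H3 changed sign, reaching 0.06, 0.19 and 0.14. Hist2h4 ranged from -2.04 to -1.56 in omissions. Hist1h4i, at 0.01 in the deposited test, was -0.079 in limma with a pseudocount of 1 or 0.5 and with a mean of at least 10 or 1, -0.077 with a pseudocount of 5, -0.053 with total-count scaling, -0.011 with upper-quartile scaling and -0.014 with the library-set term, and -0.33 to 0.30 in omissions. With the library-set term Hist1h1d was -0.10 and Hist2h3c2 -0.13. Omissions spanned -0.074 to 0.75 for Hist1h1c, -0.45 to 0.60 for Hist1h1d, -2.34 to 0.24 for Hist1h2al, -0.17 to 0.50 for Hist1h2bc, -0.035 to 3.93 for Hist2h3c1 and -0.30 to 0.19 for Hist2h3c2. Chaperones called higher went from 1 to 0, histone variants from 1 to 0 and S phase genes from 3 to 1 in every limma setting with all libraries. In omissions they were 0 to 0, 0 to 0 and 0 to 1, and the processing list had 0 to 1. The cause was not tested. The deposited test called 953 genes and limma 304, with 41 (without Flt1+/+ B or C) to 439 (library-set term) over settings; upper-quartile scaling moved the median of all genes to 0.05. Depth limits the 32 members under a mean of 5. No paired analysis was possible because the table holds group values and no replicate numbers.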

Other observations

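Short RNAs without a poly(A) tail outside the histone clusters were looked at after the histone values were seen, and are given as values. Rn7sk, the RNA that holds the elongation factor P-TEFb inactive, read 1966, 173.5 and 267.6 normalized counts in Flt1+/+ libraries A, B and C and 59.5, 133.2 and 87.4 in Flt1+/- libraries A, B and C. Rmrp, the RNA of an endonuclease that processes rRNA, read 201.6, 2.80 and 3.02 against 0, 7.95 and 0. Rpph1, the RNA of the enzyme that trims tRNA ends, read 56.4, 0 and 8.05 against 0, 11.9 and 2.73. Flt1+/+ A was the highest library for each of these 3 genes. Among the histone genes it was the library with no read of Hist2h3c1 and with 72.1 normalized counts of Hist2h2aa1. In the recovered counts the mitochondrial gene mt-Co2 read 4260 and 4070 in Flt1+/+ A and B, 4751 in Flt1+/- A, and 0 in the other 3 libraries. Hist2h2aa1 had reads in 2 of the 3 libraries with mt-Co2 reads and in 0 of the other 3.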
